A study of Saccharomyces cerevisiae with 12 samples.

Results

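A pair of TFIIH mutants of the budding yeast Saccharomyces cerevisiae, named C403A and C406A after single cysteine-to-alanine substitutions, were compared after treatment with methyl methanesulfonate (MMS). The comparison used 4 of the 12 arrays of the study, 2 of MMS-treated C403A and 2 of MMS-treated C406A, chosen by the strain and treatment in the labels, and covered 5369 genes. The study also holds 2 arrays each of untreated C403A, untreated C406A, MMS-treated wild type and untreated wild type. All treated cells had 0.03% MMS for 30 minutes, and total RNA was hybridized to one-colour Affymetrix yeast arrays. The labels name neither the mutated subunit nor the strain background. The study is known to have placed the 2 changes in Ssl1, at cysteines of its RING domain. Nothing in the labels ties the arrays to separate cultures or tells how many clones stand behind a mutant, so p-values here measure only how far these arrays spread, which may be technical. Precision is limited by having 2 arrays a group.

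TFIIH melts DNA at promoters so that RNA polymerase II can start, and it unwinds DNA around bulky lesions in nucleotide excision repair. Its core holds the helicases Rad3 and Ssl2 with Ssl1, Tfb1, Tfb2, Tfb4 and Tfb5, and a kinase module of Kin28, Ccl1 and Tfb3 phosphorylates the tail of the polymerase. MMS methylates bases in DNA. In yeast such damage activates the Mec1 and Rad53 checkpoint kinases, which induce ribonucleotide reductase genes, and it also raises stress genes and lowers genes of ribosome assembly.

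Values below are quantile-normalized intensities per array, with a floor at 34.5, and differences are C403A minus C406A on the log2 scale ± SE from a limma fit over all 12 arrays. The 4 arrays had deposited medians of 261 to 275, and replicates correlated at r = 0.993 in C403A and 0.987 in C406A, against 0.979 to 0.986 between the strains, across genes. On the 4 arrays, 3′ to 5′ signal ratios lay between 1.03 and 1.19 for ACT1 and between 1.44 and 1.64 for SPT15. They were higher for SRB4, between 7.30 and 8.85. Ribosomal RNA signal was 343 and 225 on the C403A arrays and 180.4 and 241 on the C406A arrays. Hybridization controls were brighter in C403A, at 2236 and 1789, against 1537 and 1468 in C406A. Scaling to these controls moved the median of all genes to -0.32, against 0.03 after quantile normalization, so every direction here is relative to the bulk of genes. On that scaling the medians of all 47 gene lists described below lay under 0, and 5 lists changed sign relative to the median of all genes. By the scan times in the headers of the array files, the arrays were scanned strain by strain on the same day, so strain and scan order cannot be told apart.

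After MMS, 358 of the 5369 genes differed between C403A and C406A at a Benjamini-Hochberg adjusted p under 0.05, or 6.67%. Of these, 188 were higher in C403A (3.50% of all tested genes) and 170 were lower (3.17%). Most differences were small: the median size among passing genes was 0.45 on the log2 scale, and 22 reached 2-fold, 5 higher and 17 lower in C403A. The arrays of the strains did not overlap for any of the 358 genes. Such separation is common with 2 arrays a group, since 57.8% of all tested genes showed it. The count rested on both arrays of each strain. It was 108 without C403A array 1, 100 without C403A array 2, 274 without C406A array 1 and 62 without C406A array 2. It also rested on the other groups for its estimate of spread. With the 4 arrays alone in the limma fit, only HMX1, AQY1 and SPC25 passed, each with a strain wholly at the floor. As deposited, 28 genes passed, 15 higher (0.279%) and 13 lower (0.242%), and with scaling to the hybridization controls 781 did, of which 6 were higher in C403A (0.111% of the genes tested there) and 775 lower (14.4%). Of 40 genes named below that passed as higher in C403A, 5 passed on each of these scales, namely SPC25, GRC3, SNR4, RNR3 and PUS2. Of 55 that passed as lower, 12 passed as deposited and 55 on the hybridization scaling. These counts leave out RPL17A, MYO1 and UGA4, which were named after their values were seen. Median differences per chromosome ran from -0.01 on chromosome VI to 0.07 on chromosome III among the nuclear chromosomes.

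**Figure D1:**
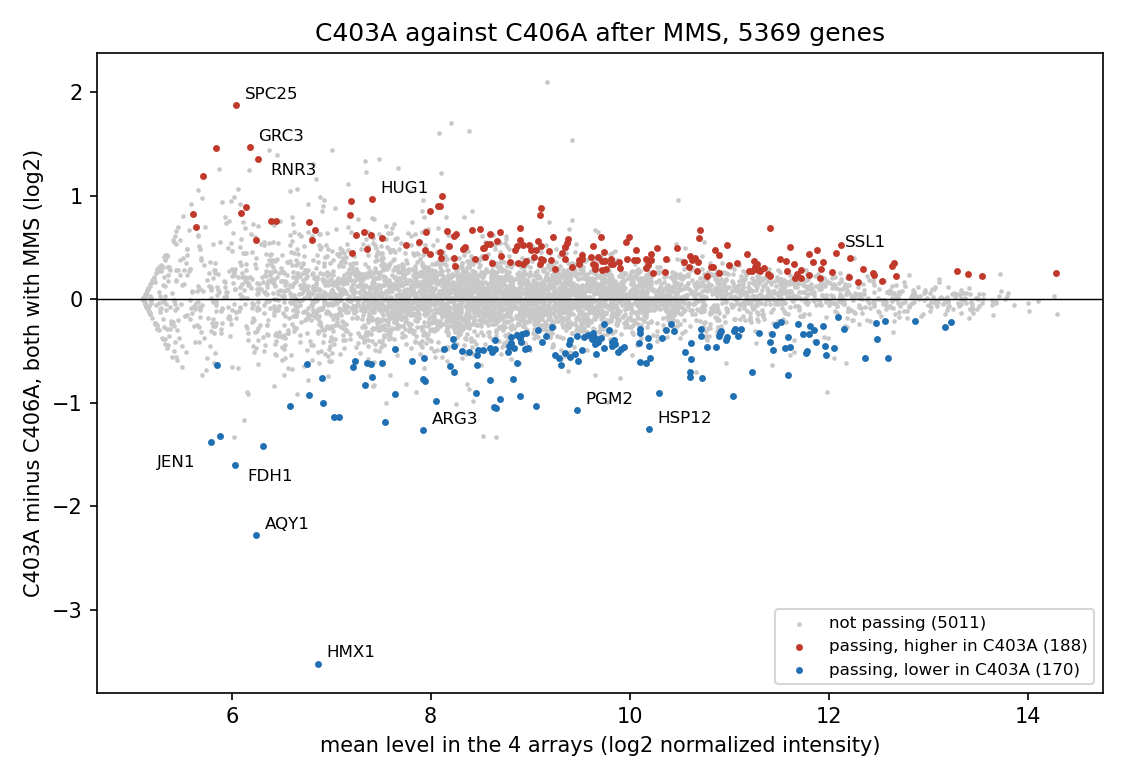
Log2 difference between MMS-treated C403A and MMS-treated C406A (vertical axis) against the mean log2 normalized intensity of the 4 arrays (horizontal axis), 1 point a gene. Red points are the 188 genes that passed and were higher in C403A, blue points the 170 that were lower, and grey points the 5011 that did not pass; HMX1 lies lowest at -3.52.

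The 12 largest differences with C403A higher belonged to genes of unlike function, 2 of them targets of the DNA damage checkpoint. RNR3, the damage-inducible large subunit of ribonucleotide reductase, had intensities of 113 and 129.8 in C403A, against 58.1 and 38.7 in C406A (log2 difference 1.36 ± 0.19, adjusted p = 0.00608). HUG1, a small checkpoint-induced inhibitor of the same enzyme, had 243 and 224 in C403A, against 90.8 and 156 in C406A (log2 difference 0.97 ± 0.23, adjusted p = 0.0398). For both genes the C406A arrays were the low ones, while wild type with MMS was nearer to C403A, with 138 and 161 for RNR3 and 264 and 202 for HUG1. SPC25, a subunit of the Ndc80 complex of the kinetochore, had 125 and 128 in C403A and lay at the floor on both C406A arrays, so it was at least 3.67-fold higher in C403A (adjusted p = 0.0317). PUS2, a tRNA pseudouridine synthase of mitochondria, had 70.4 and 88.4 in C403A and likewise lay at the floor on both C406A arrays, at least 2.29-fold higher (adjusted p = 0.0176). A group wholly at the floor shows no spread of its own, which can make its p too small.

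A pair of RNA-processing genes followed. GRC3, a polynucleotide kinase of ribosomal RNA processing, had 122 and 118 in C403A, against 54.1 and 34.5 in C406A (log2 difference 1.47 ± 0.22, adjusted p = 0.0075), with C406A array 2 at the floor. The small nucleolar RNA gene SNR4 had 105 and 86.5 in C403A, against 34.5 and 34.6 in C406A, with C406A array 1 at the floor and C406A array 2 next to it, so it was at least 2.76-fold higher in C403A (adjusted p = 0.00682). Where 1 array lay at the floor, as for GRC3, the log2 difference is a bound too. GRC3 and SNR4 were close to the floor in C406A and well above it in C403A and in wild type, which had 90.01 and 99.1 for GRC3 and 104 and 109 for SNR4. EMC1, of the endoplasmic reticulum membrane complex, had 750.1 and 753 in C403A, against 399 and 416 in C406A (log2 difference 0.88 ± 0.12, adjusted p = 0.00606), and PPT2, which activates the mitochondrial acyl carrier protein, had 380.5 and 367 in C403A, against 214 and 186 in C406A (log2 difference 0.90 ± 0.13, adjusted p = 0.00606). For these the C403A arrays lay close together and stood above wild type as well, at 469 and 392.1 for EMC1 and 156 and 174 for PPT2. The others were FOX2 of peroxisomal fatty acid oxidation (0.95), the MAP kinase phosphatase gene MSG5 (0.90), IRS4 (0.89) and the signal peptidase subunit gene SPC1 (0.85). The calls of GRC3, SNR4, RNR3, PPT2 and EMC1 held without any 1 of the 4 arrays. The adjusted p passed 0.05 when 1 array was left out for SPC25 (any of the 4, up to 0.13), PUS2 (C403A array 2 or C406A array 2, up to 0.097), HUG1 (any but C406A array 2, up to 0.173, with a log2 difference of 0.58 without C406A array 1) and FOX2 (any but C406A array 1, up to 0.0852). Also affected were MSG5 (any but C406A array 1, up to 0.183, with a log2 difference of 0.45 without C406A array 2), IRS4 (any of the 4, up to 0.106) and SPC1 (any but C406A array 1, up to 0.248). With no floor, SPC25 (2.24, adjusted p = 0.51), RNR3 (1.36, adjusted p = 0.68), PUS2 (2.50, adjusted p = 0.0574), MSG5 (0.90, adjusted p = 0.0532) and SPC1 (0.85, adjusted p = 0.055) did not pass. With the floor at the 40th percentile, GRC3 was at the floor in both strains, while SPC25, SNR4, RNR3, PUS2 and IRS4 were no longer tested.

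The 12 largest differences with C403A lower were of larger size and held transporters, carbon metabolism and stress genes. HMX1, which encodes heme oxygenase, lay at the floor on both C403A arrays and had 357 and 435 in C406A, at least 11.4-fold lower in C403A (adjusted p = 0.0196). Wild type with MMS was itself split for HMX1, at 34.5 and 204. AQY1, a water channel, lay at the floor in C403A against 163 and 171 in C406A, at least 4.85-fold lower (adjusted p = 0.04), and again the wild-type arrays were split, at 37.3 and 184. JEN1, the lactate and pyruvate transporter, lay at the floor in C403A against 85.2 and 93.8 in C406A, at least 2.59-fold lower (adjusted p = 0.0204). All 3 thus had a level on the C406A arrays and only a bound in C403A. FDH1, formate dehydrogenase, had 40.8 and 34.5 in C403A, against 124 and 104 in C406A (log2 difference -1.60 ± 0.23, adjusted p = 0.00608), with C403A array 2 at the floor. Its near-identical copy FDH2 could share signal with it, and its other probe sets lay at the floor. ATR2, a transporter gene, had 34.5 and 40.02 in C403A, against 87.7 and 98.01 in C406A (log2 difference -1.32 ± 0.15, adjusted p = 0.00395), with C403A array 1 at the floor.

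HSP12, a small heat shock protein of membranes and a marker of the general stress response, was the brightest of the 12, with 746 and 771 in C403A, against 1670.0 and 1961 in C406A (log2 difference -1.26 ± 0.12, adjusted p = 0.00192). ARG3, ornithine carbamoyltransferase of arginine synthesis, had 171 and 143 in C403A, against 416 and 338 in C406A (log2 difference -1.26 ± 0.15, adjusted p = 0.00395). PGM2, the main phosphoglucomutase, had 511 and 465 in C403A, against 1135 and 924 in C406A (log2 difference -1.07 ± 0.18, adjusted p = 0.0131). C406A lay above C403A in each case, and wild type was not on 1 side: it had 1108 and 879.8 for HSP12, 668 and 640.4 for ARG3 and 1100.1 and 868 for PGM2. ATG1, the kinase that starts autophagy, had 63.7 and 123 in C403A, against 207 and 184 in C406A (log2 difference -1.14 ± 0.28, adjusted p = 0.0445), with C403A array 1 the lowest. The remaining genes were PNS1 (-1.42), the small nucleolar RNA gene SNR70 (-1.19) and ECM13 (-1.14). The calls of FDH1, ATR2, ARG3 and HSP12 held without any 1 of the 4 arrays. Leaving out 1 array took the adjusted p over 0.05 for HMX1 (any but C406A array 1, up to 0.101), AQY1 (any of the 4, up to 0.162), PNS1 (any but C403A array 1, up to 0.1) and JEN1 (any but C406A array 1, up to 0.108). Also affected were SNR70 (C403A array 2 or C406A array 2, up to 0.0546), ECM13 (any but C403A array 1, up to 0.136), ATG1 (any but C403A array 2, up to 0.193, with a log2 difference of -0.66 without C403A array 1) and PGM2 (C403A array 2, 0.075). Without a floor the threshold was missed by ATR2 (-1.68, adjusted p = 0.406) and ATG1 (-1.14, adjusted p = 0.0532). A floor at the 40th percentile changed these values: AQY1 was at -0.17 (adjusted p = 0.415) and PNS1 was at the floor in both strains, while FDH1, JEN1 and ATR2 were no longer tested.

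**Figure D2:**
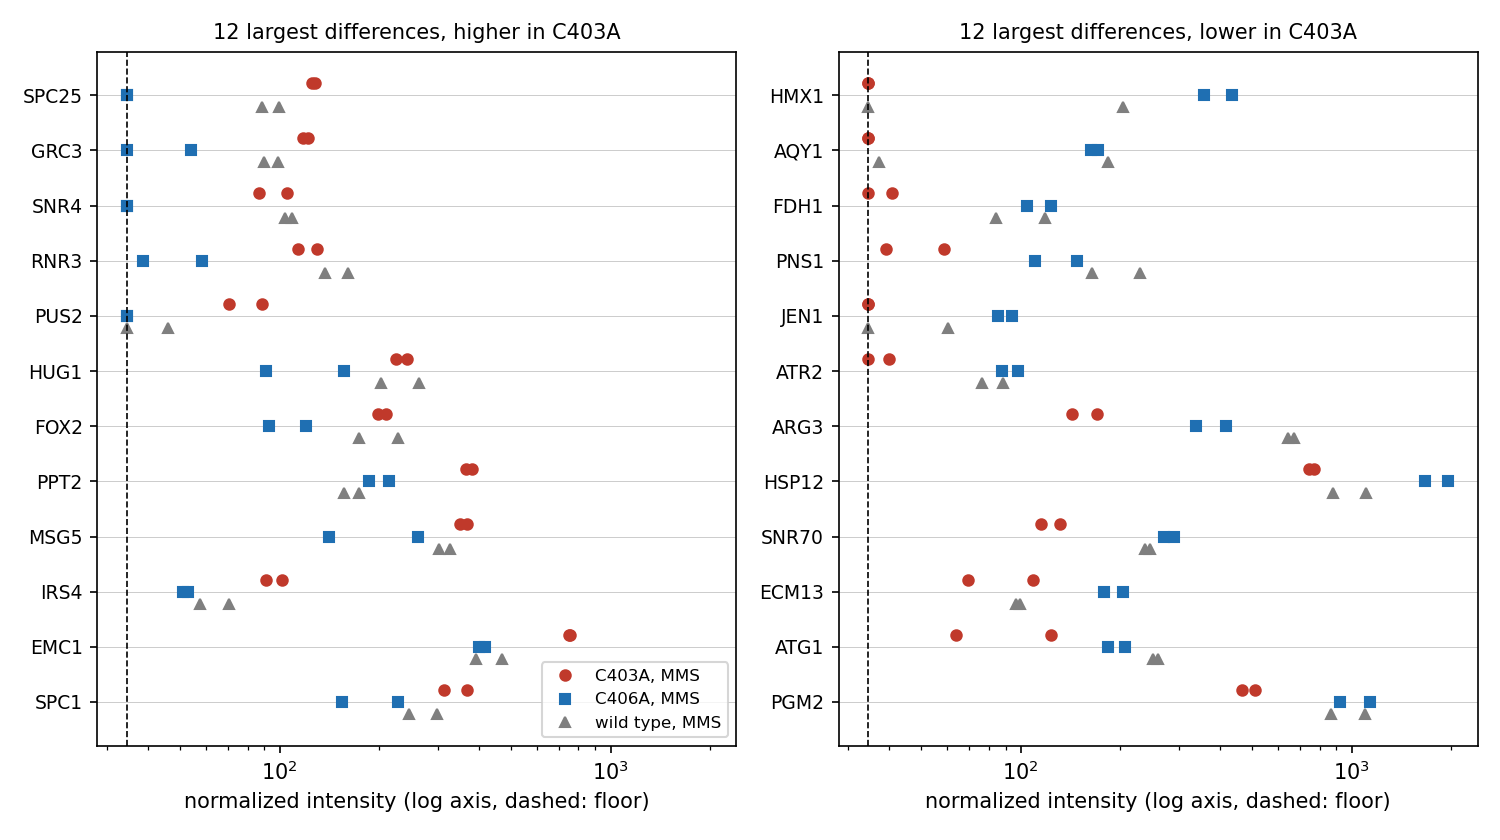
Normalized intensity of each array (horizontal log axis; the dashed line is the floor at 34.5) for the 12 largest differences in each direction: C403A with MMS (red circles), C406A with MMS (blue squares) and wild type with MMS (grey triangles). The 24 genes were chosen among those whose C403A and C406A arrays do not overlap, which holds for 57.8% of all tested genes. HMX1, AQY1 and JEN1 lie at the floor in C403A, as SPC25 and PUS2 do in C406A.

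Among genes of the general stress response, which Msn2 and Msn4 raise under many stresses, those that passed were all lower in C403A. Of 46 measured, 13 were lower and 0 higher, against 3.17% and 3.50% of all tested genes, with a median of -0.31 against 0.03. Beside HSP12 and PGM2, the largest were RTC3, with 334 and 229.6 in C403A, against 542 and 611 in C406A (log2 difference -1.05 ± 0.25, adjusted p = 0.0408), and TMA10, with 316 and 241 in C403A, against 571 and 561 in C406A (log2 difference -1.04 ± 0.21, adjusted p = 0.0232). In C403A the second array was the lower for both genes. Storage carbohydrate genes, some of them members of the stress list as well, showed the same direction: 8 of 20 measured were lower and 1 higher, with a median of -0.21. GPH1, glycogen phosphorylase, had 190.3 and 187 in C403A, against 402.6 and 344 in C406A (log2 difference -0.98 ± 0.18, adjusted p = 0.0176), and GSY1, a glycogen synthase, had 194 and 179 in C403A, against 347 and 300.4 in C406A (log2 difference -0.79 ± 0.16, adjusted p = 0.0253). TSL1, of the trehalose synthase complex, had 1265 and 1179.8 in C403A, against 1934 and 2037 in C406A (log2 difference -0.70 ± 0.09, adjusted p = 0.00456). The exception was PGM1, the minor phosphoglucomutase, with 2124 and 2259 in C403A, against 1635 and 1511 in C406A (log2 difference 0.48 ± 0.08, adjusted p = 0.0135), so PGM1 and PGM2 differed in opposite directions. Enzymes of glycogen synthesis and of its breakdown were both among the lower genes. Without C403A array 1, C403A array 2, C406A array 1 and C406A array 2 in turn, 9, 4, 7 and 6 stress genes and 3, 1, 3 and 3 storage genes were lower past the threshold. The call of TSL1 held without any 1 of the 4 arrays. Without 1 array the threshold was missed by RTC3 (any of the 4, up to 0.214), TMA10 (any but C403A array 1, up to 0.128), GPH1 (any of the 4, up to 0.0848) and GSY1 (any of the 4, up to 0.124). The same happened for PGM1 (C403A array 2 or C406A array 2, up to 0.0824). On the hybridization scaling 32 stress genes (median -0.67) and 11 storage genes (median -0.56) were lower. There 14.4% of all tested genes were lower, and the median of all genes was -0.32. As deposited 2 and 0 were lower, against 0.242% of all genes.

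Of 32 measured genes of glycolysis and fermentation 5 were lower in C403A and 0 higher (median -0.11), and of 17 hexose transporters 3 were lower and 0 higher (median -0.16), against 3.17% lower and 3.50% higher among all tested genes. ACS1, an acetyl-CoA synthetase, had 402.8 and 340.4 in C403A, against 689 and 834 in C406A (log2 difference -1.03 ± 0.19, adjusted p = 0.0178), HXK1, a hexokinase, had 1692 and 1355 in C403A, against 3162 and 2658 in C406A (log2 difference -0.94 ± 0.12, adjusted p = 0.00516), and ALD6, cytosolic aldehyde dehydrogenase, had 2940.1 and 2983 in C403A, against 4654 and 3787 in C406A (log2 difference -0.50 ± 0.10, adjusted p = 0.0198). ACS1 and ALD6 act in acetate metabolism, HXK1 is the hexokinase made on poor sugars, and another probe set of ALD6 lay at the floor. The high-affinity glucose transporter HXT6 had 3368 and 3316 in C403A, against 5117 and 4602 in C406A (log2 difference -0.54 ± 0.07, adjusted p = 0.00456), and its near-identical copy HXT7, whose probes may share signal with it, differed by -0.47. The low-affinity transporter HXT1 differed by -0.40 (adjusted p = 0.0283). In the respiratory chain 7 of 44 genes were lower and 0 higher (median -0.10). CYB2, which oxidizes lactate, had 70.8 and 63.9 in C403A, against 142 and 132 in C406A (log2 difference -1.03 ± 0.16, adjusted p = 0.0103), while cytochrome c gene CYC1 (-0.46 ± 0.08, adjusted p = 0.0131) and the Rieske protein gene RIP1 (-0.35 ± 0.07, adjusted p = 0.0196) differed less. Of 26 genes of the tricarboxylic acid cycle 1 was lower. With each array left out in the order above, 2, 2, 3 and 3 glycolysis genes, 2, 1, 2 and 1 transporters and 4, 1, 2 and 1 respiratory genes were lower. As deposited these counts were 2, 0 and 0 in limma's test, against 0.242% lower among all genes. The calls of HXK1 and HXT6 held without any 1 of the 4 arrays. Calls that did not survive the loss of 1 array were those of ACS1 (any but C406A array 1, up to 0.105), ALD6 (any but C406A array 2, up to 0.0921), HXT7 (any of the 4, up to 0.097) and HXT1 (C403A array 2 or C406A array 2, up to 0.157). Also affected were CYB2 (C403A array 2 or C406A array 2, up to 0.0659), CYC1 (C403A array 2 or C406A array 2, up to 0.0781) and RIP1 (any of the 4, up to 0.1). Under the higher floor, at the 40th percentile, CYB2 was at the floor in both strains.

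Of 16 measured genes of arginine metabolism 5 were lower in C403A and 0 higher (median -0.22), where 3.17% of all tested genes were lower and 3.50% higher. After ARG3, ARG1, argininosuccinate synthetase, had 3857 and 3006 in C403A, against 4779 and 4507 in C406A (log2 difference -0.45 ± 0.10, adjusted p = 0.0349), and ORT1, which carries ornithine out of mitochondria, had 602 and 549 in C403A, against 783 and 773 in C406A (log2 difference -0.44 ± 0.08, adjusted p = 0.0172). Other targets of the amino acid regulator Gcn4 were divided, 5 lower and 2 higher of 43 (median -0.09). Among them ILV5, of branched-chain amino acid synthesis, had 2409 and 2740.0 in C403A, against 3636 and 3479 in C406A (log2 difference -0.47 ± 0.08, adjusted p = 0.0145), and HIS4, of histidine synthesis, had 4861 and 5154 in C403A, against 7111 and 5971 in C406A (log2 difference -0.38 ± 0.08, adjusted p = 0.0223). Nitrogen catabolite genes were lower in 6 of 32 cases and higher in 0 (median -0.10), with GDH2, glutamate dehydrogenase, at -0.47 (adjusted p = 0.0204) and the amino acid permease gene BAP3 at -0.33 (adjusted p = 0.00656). Another of the 6 was the permease gene UGA4, named here after its values were seen, at -0.48, while its 2 other probe sets gave 0 and 0.05. In nucleotide and one-carbon metabolism 5 of 51 were lower and 1 higher (median -0.0035), among them ADE17 of purine synthesis at -0.56 (adjusted p = 0.0148) and GCV2 of glycine cleavage at -0.37 (adjusted p = 0.0204). Sulfur amino acid genes held 3 lower and 2 higher of 35. With each array left out in the same order, 3, 1, 2 and 1 arginine genes and 1, 1, 2 and 0 nitrogen genes were lower. As deposited, 1 arginine gene and 0 nitrogen genes were in limma's test, against 0.242% of all genes. Past 0.05 without 1 array were ARG1 (any but C403A array 1, up to 0.127, with a log2 difference of -0.27 without C403A array 2), ORT1 (C403A array 2 or C406A array 2, up to 0.0921), ILV5 (C403A array 1 or C406A array 2, up to 0.0777) and HIS4 (any but C406A array 2, up to 0.118). Also affected were GDH2 (any of the 4, up to 0.105), BAP3 (C406A array 2, 0.0507), ADE17 (any but C406A array 1, up to 0.0732) and GCV2 (any but C403A array 2, up to 0.105).

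Phosphate genes, which the factor Pho4 raises when phosphate is short, gave some of the most precise differences. Of 22 measured phosphate and zinc genes 7 were lower in C403A and 0 higher (median -0.29), against 3.17% and 3.50% of all tested genes. PHO5, the secreted acid phosphatase, had 2399 and 2383 in C403A, against 3806 and 4133 in C406A (log2 difference -0.73 ± 0.06, adjusted p = 0.000926). PHO84, the high-affinity phosphate transporter, had 4238 and 4447 in C403A, against 6643 and 6253 in C406A (log2 difference -0.57 ± 0.05, adjusted p = 0.000955). SPL2, an inhibitor of low-affinity uptake, had 286 and 279.8 in C403A, against 426 and 452 in C406A (log2 difference -0.63 ± 0.09, adjusted p = 0.00763), and VTC3, of the polyphosphate polymerase of the vacuole, had 1578 and 1599.7 in C403A, against 2246 and 2137 in C406A (log2 difference -0.46 ± 0.06, adjusted p = 0.00406). All 4 differed by less than 2-fold, and related acid phosphatase genes could share signal with PHO5. The same direction was present without MMS, where 5 of the 22 passed as lower, against 0.317% lower among all tested genes. PHO5 at -0.49 (adjusted p = 0.0169) and PHO84 at -0.39 (adjusted p = 0.0169) were among the 5. With only the untreated mutant arrays in the limma fit no gene passed there, and on the hybridization scaling 2 of all tested genes were lower. Iron genes were mixed, 4 lower and 3 higher of 31. Beside HMX1, the ferric reductase gene FRE4 (-0.92), the low-affinity iron transporter gene FET4 (-0.59) and ISU1, a scaffold for iron-sulfur clusters (-0.39), were lower, while the iron regulator gene AFT2 (0.62), FRE6 (0.57) and the siderophore transporter gene ARN1 (0.40) were higher. With each array left out in the same order, 5, 4, 6 and 3 phosphate and zinc genes were lower. As deposited, 1 was lower and 1 higher, against 0.242% and 0.279% of all genes. The calls of PHO5, PHO84 and VTC3 held without any 1 of the 4 arrays. Dropping 1 array ended the calls of SPL2 (C406A array 2, 0.0594), FRE4 (any of the 4, up to 0.179), FET4 (any but C406A array 1, up to 0.0885) and ISU1 (any of the 4, up to 0.155). Also affected were AFT2 (any but C403A array 1, up to 0.128), FRE6 (any but C403A array 2, up to 0.188) and ARN1 (any of the 4, up to 0.187). With the floor at the 40th percentile, FRE4 was at -0.07 (adjusted p = 0.761) and FET4 was at -0.33 (adjusted p = 0.0572).

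Among genes that peak as cells leave mitosis, some of them acting in daughter cell separation, those that passed were all lower in C403A. Of 25 measured M-G1 genes 11 were lower and 0 higher (median -0.32), against 3.17% lower and 3.50% higher of all tested genes. DSE1, of daughter cell separation, had 184 and 181 in C403A, against 254 and 301 in C406A (log2 difference -0.60 ± 0.10, adjusted p = 0.0132). EGT2, a wall protein, had 994 and 937 in C403A, against 1629 and 1263 in C406A (log2 difference -0.57 ± 0.13, adjusted p = 0.036), with C406A array 1 well above C406A array 2. The wall proteins PIR1, with 3000.4 and 2834 in C403A, against 4367 and 3972 in C406A (log2 difference -0.51 ± 0.06, adjusted p = 0.00346), and PIR3, with 2489 and 2220.4 in C403A, against 3080.3 and 3527 in C406A (log2 difference -0.49 ± 0.11, adjusted p = 0.033), also passed. Fewer cells at that stage and less RNA per cell cannot be told apart in such bulk samples. Other cell cycle lists had fewer passing genes: 2 of 24 G2-M genes were lower, the wall stress sensor gene WSC4 among them at -0.83 (adjusted p = 0.00456) with MYO1, 1 of 30 G1-S genes was lower and 1 higher, and none of 45 DNA replication genes or of 5 measured histone genes passed. The call of MYO1, the myosin of the dividing bud neck, named here after its values were seen, rested on 1 probe set at -0.78, while its 7 other probe sets gave 0 to 0.46. Of 41 cell wall genes, some also in the M-G1 list, 6 were lower and 1 higher (median -0.05), with PST1 at -0.46 (adjusted p = 0.00919) and SUN4 at -0.45 (adjusted p = 0.0176). With each array left out in the same order, 3, 4, 8 and 3 M-G1 genes were lower. As deposited, 0 were in limma's test, against 0.242% of all genes. The calls of PIR1 and WSC4 held without any 1 of the 4 arrays. The adjusted p passed 0.05 when 1 array was left out for DSE1 (any but C406A array 1, up to 0.0733), EGT2 (any but C406A array 2, up to 0.157), PIR3 (any but C406A array 1, up to 0.177) and PST1 (C403A array 2 or C406A array 2, up to 0.0568). The same happened for SUN4 (any but C403A array 2, up to 0.0945).

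Genes of ribosome assembly passed in the other direction. Of 59 measured genes of the small-subunit processome 10 were higher in C403A and 0 lower, and of 73 factors of 60S assembly 12 were higher and 0 lower, against 3.50% higher among all tested genes. Their medians were 0.21 and 0.21 after quantile normalization but -0.10 and -0.11 on the hybridization scaling, which put them 0.22 and 0.20 above the median of all genes. On that scaling 0 and 0 members were higher and 1 and 1 lower in limma's test. Of all genes tested there 0.111% were higher and 14.4% lower. As deposited 0 and 1 were higher in limma's test, against 0.279% of all genes. BFR2 had 570.1 and 641 in C403A, against 382 and 368 in C406A (log2 difference 0.69 ± 0.14, adjusted p = 0.0268), NOC4, a partner of Nop14, had 487 and 556 in C403A, against 324 and 337 in C406A (log2 difference 0.65 ± 0.11, adjusted p = 0.0132), and UTP23 of the processome had 1277 and 1231 in C403A, against 756 and 906 in C406A (log2 difference 0.60 ± 0.08, adjusted p = 0.00577). Of the 60S factors, NOP8 had 377 and 385 in C403A, against 241 and 251 in C406A (log2 difference 0.63 ± 0.09, adjusted p = 0.00638), the helicase gene MAK5 had 725 and 749 in C403A, against 519 and 456 in C406A (log2 difference 0.60 ± 0.10, adjusted p = 0.0104), and NOP16 had 598 and 616 in C403A, against 407 and 439.9 in C406A (log2 difference 0.52 ± 0.07, adjusted p = 0.00606). All 6 genes differed by less than 2-fold. UTP18 (0.57 ± 0.14, adjusted p = 0.0465) and SSF1 (0.53 ± 0.10, adjusted p = 0.0184) also passed. Counts were lower elsewhere in the protein synthesis machinery: 4 of 40 genes of RNA polymerases I and III were higher and 1 lower, 3 of 80 cytosolic ribosomal protein genes were higher, 4 of 50 tRNA synthetases and translation factors were higher, and 5 of 71 mitochondrial ribosomal protein genes were lower. Of these 3 ribosomal protein genes, RPL17A, named here after its values were seen, was at 0.27 but at -0.11 on another probe set. With each array left out in the same order, 6, 1, 5 and 2 processome genes and 7, 3, 7 and 3 60S factors were higher. The calls of UTP23, NOP8 and NOP16 held without any 1 of the 4 arrays. Leaving out 1 array took the adjusted p over 0.05 for BFR2 (any of the 4, up to 0.138), NOC4 (C403A array 2 or C406A array 2, up to 0.0801), UTP18 (any of the 4, up to 0.211) and MAK5 (C403A array 2 or C406A array 2, up to 0.0703). The same happened for SSF1 (any of the 4, up to 0.101).

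**Figure D3:**
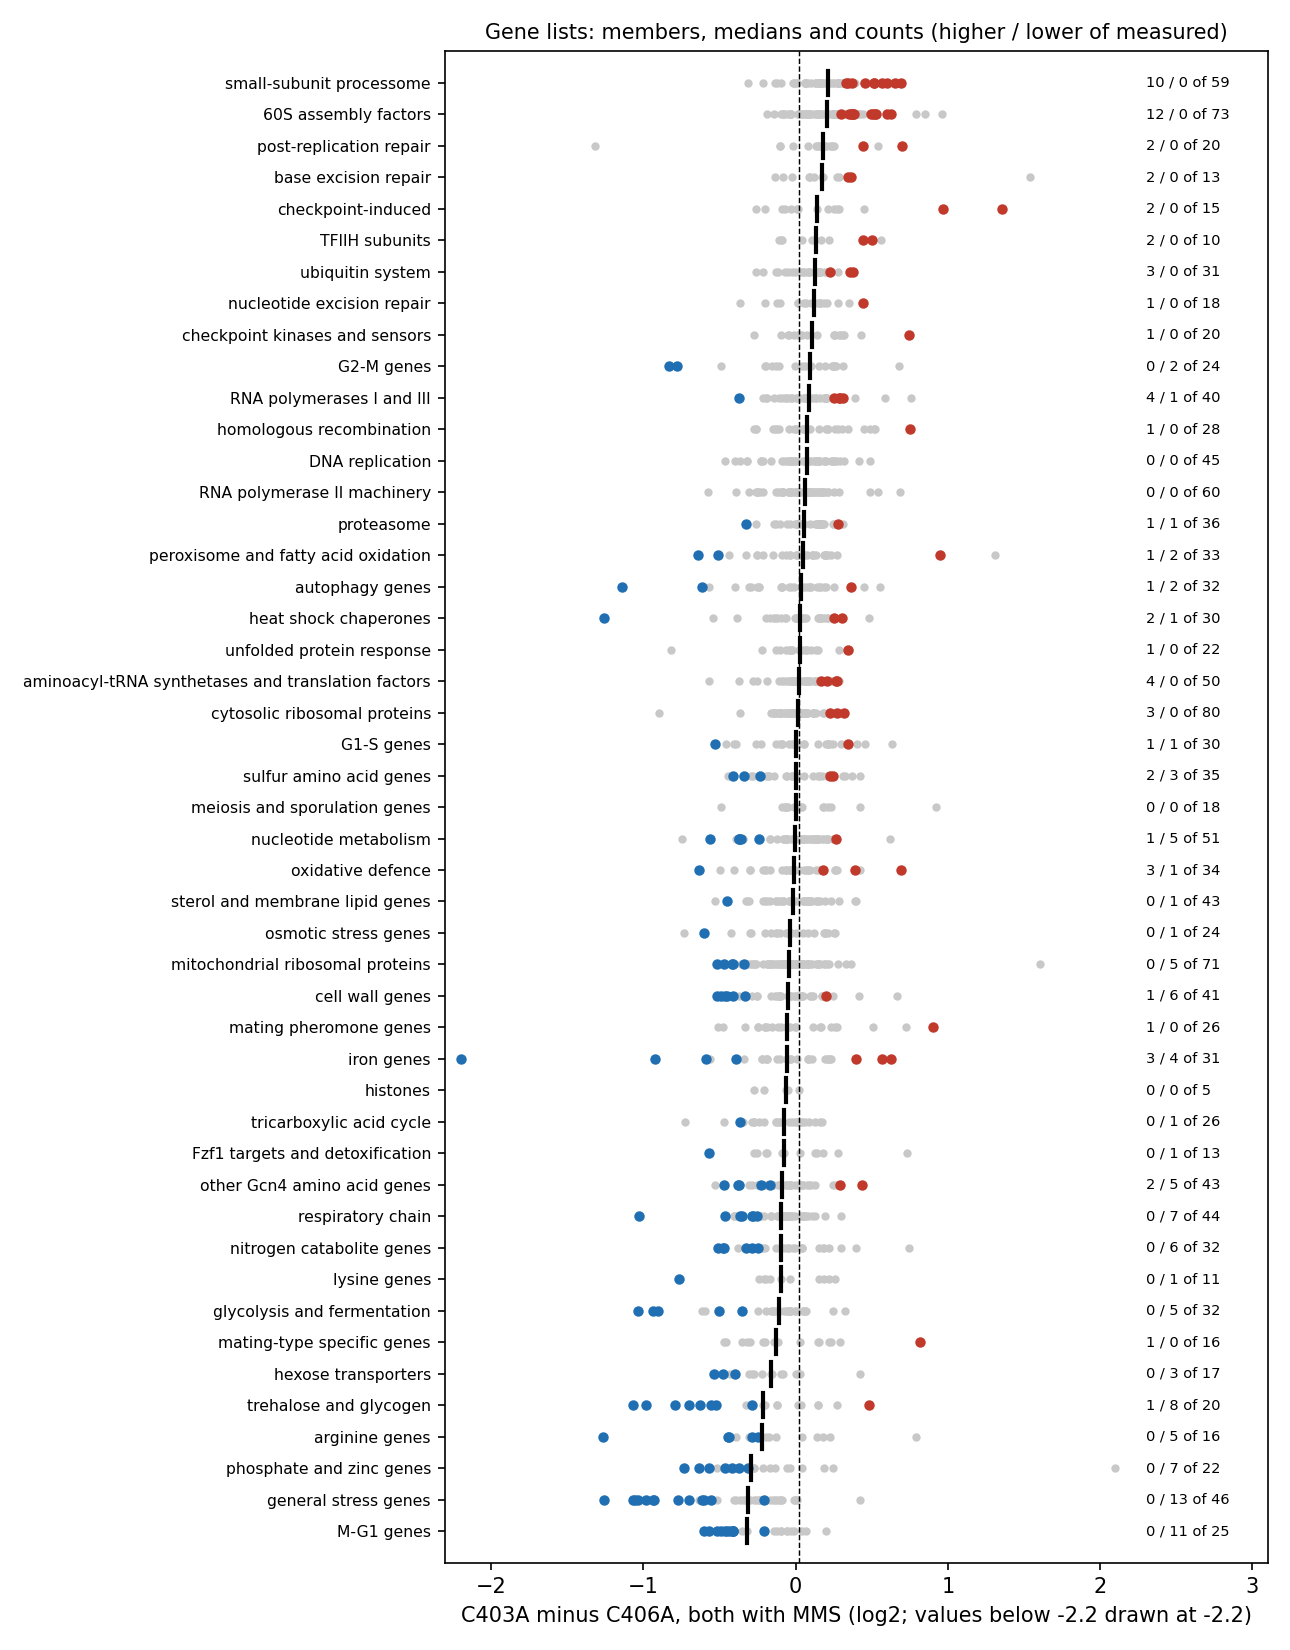
Log2 difference between MMS-treated C403A and MMS-treated C406A for every measured member of 47 gene lists (horizontal axis), with list medians as black bars and the median of all genes as a dashed line. Members that passed are red where higher and blue where lower in C403A, numbers at the right count them (higher / lower of measured), HMX1 at -3.52 is drawn at the edge, and the processome and 60S lists lie at the top and the M-G1 and stress lists at the bottom.

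Among genes that the checkpoint induces, 2 of 15 were higher in C403A and 0 lower (median 0.14), namely RNR3 and HUG1, against 3.50% higher among all tested genes. On the hybridization scaling 1 was higher and 3 lower, against 0.111% and 14.4% of all genes tested there. The other ribonucleotide reductase genes did not pass: RNR1, the main large subunit, had 1687 and 1861 in C403A, against 2166 and 2084 in C406A (log2 difference -0.26 ± 0.10, adjusted p = 0.148), RNR2, a small subunit, differed by -0.03 (95% interval -0.15 to 0.08), and RNR4 by 0.01 (-0.09 to 0.11). The estimates for RNR3 and RNR1 had opposite signs, and RNR2 and RNR4 were bright genes with narrow intervals around 0. Further damage-responsive genes did not pass either. MAG1, the glycosylase that removes methylated bases, had 337 and 332 in C403A, against 271 and 283 in C406A (log2 difference 0.27 ± 0.13, adjusted p = 0.247). DDI1 (0.29 ± 0.09, adjusted p = 0.0797) and RAD54 of homologous recombination (0.45 ± 0.13, adjusted p = 0.0708) missed the threshold. Their arrays did not overlap between the strains, as for 57.8% of all tested genes. DIN7 (-0.07, 95% interval -0.36 to 0.23) and PLM2 (-0.09, -0.60 to 0.41) had estimates near 0, with intervals reaching both sides of it. GRE2, a stress-responsive reductase, differed by -0.06 with an interval of -1.15 to 1.03. Ubiquitin gene UBI4 (0.21 ± 0.06, adjusted p = 0.0532) and the proteasome regulator gene RPN4 (0.12 ± 0.08, adjusted p = 0.408) did not pass. RNR1 and RNR2 passed as lower on the hybridization scaling, at -0.61 for RNR1 (adjusted p = 0.0214) and -0.43 for RNR2 (adjusted p = 0.0497). DDI1 passed with scaling to a common median (adjusted p = 0.0498), RAD54 with the floor at the 40th percentile (adjusted p = 0.0288), and UBI4 with that floor, with no filter and with array weights (adjusted p = 0.0378 to 0.0428). The leave-one-array values of RNR3 and HUG1 stand above.

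DNA repair lists held few passing genes, all higher in C403A, where 3.50% of all tested genes were. Nucleotide excision repair had 1 of 18, RAD14, which binds damaged DNA, with 176 and 168 in C403A, against 123 and 131 in C406A (log2 difference 0.44 ± 0.11, adjusted p = 0.0475). Base excision repair had 2 of 13, the ligase gene CDC9 with 509.7 and 499 in C403A, against 391.5 and 393 in C406A (log2 difference 0.36 ± 0.08, adjusted p = 0.0318) and the flap nuclease gene RAD27 with 1052 and 996 in C403A, against 831 and 785 in C406A (log2 difference 0.34 ± 0.07, adjusted p = 0.0283). The post-replication repair list had 2 of 20. The translesion polymerase gene REV1 had 719 and 774 in C403A, against 507 and 593 in C406A (log2 difference 0.44 ± 0.10, adjusted p = 0.0303). RAD61, listed there although its product releases cohesin from DNA, had 71.2 and 55.8 in C403A, against 43.6 and 34.5 in C406A (log2 difference 0.70 ± 0.17, adjusted p = 0.0432). For RAD61, C406A array 2 lay at the floor. Homologous recombination had 1 of 28, SHU1, with 125 and 102 in C403A, against 62.2 and 71.96 in C406A (log2 difference 0.75 ± 0.18, adjusted p = 0.0414). The checkpoint kinase and sensor list had 1 of 20, TEL1, the kinase related to Mec1, with 138 and 145 in C403A, against 90.8 and 78.3 in C406A (log2 difference 0.75 ± 0.12, adjusted p = 0.00942). On the hybridization scaling none of these lists had a gene higher, in limma's test, and 2 genes of nucleotide excision repair, 2 of homologous recombination, 1 of post-replication repair, 1 of the checkpoint list and 0 of base excision repair were lower, against 14.4% of all genes tested there. These counts are small, and all of the differences were under 2-fold. Without 1 array the threshold was missed by RAD14 (any of the 4, up to 0.199), CDC9 (any of the 4, up to 0.136), RAD27 (any of the 4, up to 0.15) and REV1 (any of the 4, up to 0.145). Also affected were RAD61 (any but C406A array 1, up to 0.219), SHU1 (any of the 4, up to 0.207) and TEL1 (C403A array 2 or C406A array 2, up to 0.0608). Removing the floor ended the calls of RAD14 (0.44, adjusted p = 0.0613), RAD61 (1.04, adjusted p = 0.158) and SHU1 (0.75, adjusted p = 0.55). A floor at the 40th percentile changed these values: TEL1 was at the floor in both strains, while RAD61 and SHU1 were no longer tested.

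Among the TFIIH genes themselves, 2 of 10 were higher in C403A and 0 lower, against 3.50% higher among all tested genes. SSL1 had 4939 and 5117 in C403A, against 4038 and 3389 in C406A (log2 difference 0.44 ± 0.08, adjusted p = 0.0176), and wild type with MMS had 1757 and 1607. Its chromosomal neighbour SSK1, an osmosensing response regulator gene, had 3701 and 3729.6 in C403A, against 2788 and 2459 in C406A (log2 difference 0.50 ± 0.07, adjusted p = 0.00654), and wild type had 1338 and 1228. Both genes were therefore above wild type in both mutants and higher in C403A. The same held without MMS, at 0.46 for SSL1 (adjusted p = 0.0461) and 0.48 for SSK1 (adjusted p = 0.0342). With only the untreated mutant arrays in the limma fit, no gene passed without MMS. LEU2, of leucine synthesis, had 8564 and 7974 in C403A, against 8159 and 7385 in C406A (log2 difference 0.09 ± 0.06, adjusted p = 0.431), and wild type had 4602 and 4990.4, so it was above wild type in both mutants with no passing difference between them. RAD3, the helicase subunit that opens DNA in repair, had 420.2 and 454 in C403A, against 322 and 297 in C406A (log2 difference 0.50 ± 0.11, adjusted p = 0.0303). TFB3, of the kinase module, had 316 and 257 in C403A, against 209.7 and 178 in C406A and did not pass (log2 difference 0.56 ± 0.20, adjusted p = 0.119). The remaining subunits did not pass and had small estimates, with SSL2 at 0.04 (95% interval -0.23 to 0.31), TFB1 at -0.10, TFB2 at -0.11, TFB4 at 0.22, TFB5 at -0.09, KIN28 at 0.17 and CCL1 at 0.11. None of 60 measured genes of the RNA polymerase II machinery passed in limma's test, with a list median of 0.06. As deposited and on the hybridization scaling no TFIIH gene passed in limma, with log2 differences on that scaling of 0.04 for SSL1 (adjusted p = 0.869), 0.08 for SSK1 (adjusted p = 0.708) and 0.17 for RAD3 (adjusted p = 0.52). TFB3 passed with the floor at the 40th percentile (adjusted p = 0.0343). The call of SSK1 held without any 1 of the 4 arrays. Calls that did not survive the loss of 1 array were those of SSL1 (any but C406A array 1, up to 0.0914) and RAD3 (any of the 4, up to 0.15).

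Lists of protein quality control and oxidant defence held few passing genes, with shares to be read against 3.50% higher and 3.17% lower among all tested genes. The proteasome had 1 gene higher and 1 lower of 36, heat shock chaperones 2 and 1 of 30, and the unfolded protein response 1 and 0 of 22. The ubiquitin system had 3 higher and 0 lower of 31, the shuttle factor gene DSK2 (0.36 ± 0.06, adjusted p = 0.00983) and CUZ1 (0.38 ± 0.09, adjusted p = 0.0344) among them. DSK2 was at -0.03 on the hybridization scaling. Oxidative defence had 3 higher and 1 lower of 34. SRX1, sulfiredoxin, had 3636 and 3291 in C403A, against 2206 and 2082 in C406A (log2 difference 0.69 ± 0.10, adjusted p = 0.00682), and YCF1, a vacuolar glutathione conjugate pump, had 1036 and 1022 in C403A, against 815 and 759 in C406A (log2 difference 0.39 ± 0.08, adjusted p = 0.0237). TSA2, a peroxiredoxin, had 565 and 455 in C403A, against 730.1 and 849.8 in C406A (log2 difference -0.63 ± 0.14, adjusted p = 0.0314), so it went against SRX1, the enzyme that repairs peroxiredoxins. SSU1, a sulfite pump whose MMS response in wild type was 2.73, had 5109.8 and 5005 in C403A, against 6705 and 8420.0 in C406A (log2 difference -0.57 ± 0.10, adjusted p = 0.0155) and was the 1 of 13 Fzf1 and detoxification genes that passed. Of other lists, mating pheromone genes had 1 higher of 26, mating-type genes 1 higher of 16, meiosis genes 0 passing of 18 in limma's test, and lysine genes 1 lower of 11. Sterol and membrane lipid genes had 1 lower of 43, autophagy genes 1 higher and 2 lower of 32, peroxisome genes 1 higher and 2 lower of 33, and osmotic stress genes 1 lower of 24. Among their members were the glycerol phosphatase gene GPP2 of osmotic stress (-0.60 ± 0.08, adjusted p = 0.00542), the fatty acid activator gene FAA1 (-0.51 ± 0.07, adjusted p = 0.00521), and the alpha-factor gene MF(ALPHA)2, with 702 and 754 in C403A, against 398 and 429 in C406A (log2 difference 0.82 ± 0.10, adjusted p = 0.00456). The calls of GPP2, FAA1 and MF(ALPHA)2 held without any 1 of the 4 arrays. Past 0.05 without 1 array were DSK2 (C403A array 1 or C406A array 2, up to 0.06), CUZ1 (any of the 4, up to 0.175), SRX1 (C406A array 2, 0.0576) and YCF1 (any but C406A array 1, up to 0.13). Also affected were TSA2 (C403A array 2 or C406A array 2, up to 0.169) and SSU1 (any but C406A array 1, up to 0.0787).

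The same strains were also compared without MMS, on other arrays, although the fit shares 1 estimate of spread over all 12. There 35 genes passed in limma, or 0.652% of those tested, 18 higher and 17 lower in C403A, and 883 had an unadjusted p under 0.05. The 3′ to 5′ signal ratio of SRB4 was 6.16 on untreated C403A array 1 and 12.5 on array 2. It was 6.24 and 8.23 on the untreated C406A arrays. C403A array 2 of that untreated group stood apart in ribosomal RNA signal, at 1775, and the count was 30 without it and 108 without the other C403A array. Without C406A array 1 or C406A array 2 of the untreated group it was 0 and 0, with 703 and 492 genes at an unadjusted p under 0.05 in limma. A set of 20 genes passed both with and without MMS, 19 of them with the same sign, which is 5.59% of the genes passing with MMS and 57.1% of those passing without. Of the 358 genes passing with MMS, 291 had the same sign without it (81.3%), against 64.3% of all tested genes. Their differences were smaller without MMS: genes higher in C403A with MMS had a median of 0.41 with it and 0.16 without, and genes lower had -0.47 with it and -0.15 without. Choosing genes by 1 of the measurements tends to make that measurement the larger, so these medians do not compare the strength of the difference. Across all genes the log2 differences with and without MMS correlated at r = 0.39 (Spearman 0.38), as a description, since genes are not independent replicates.

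**Figure D4:**
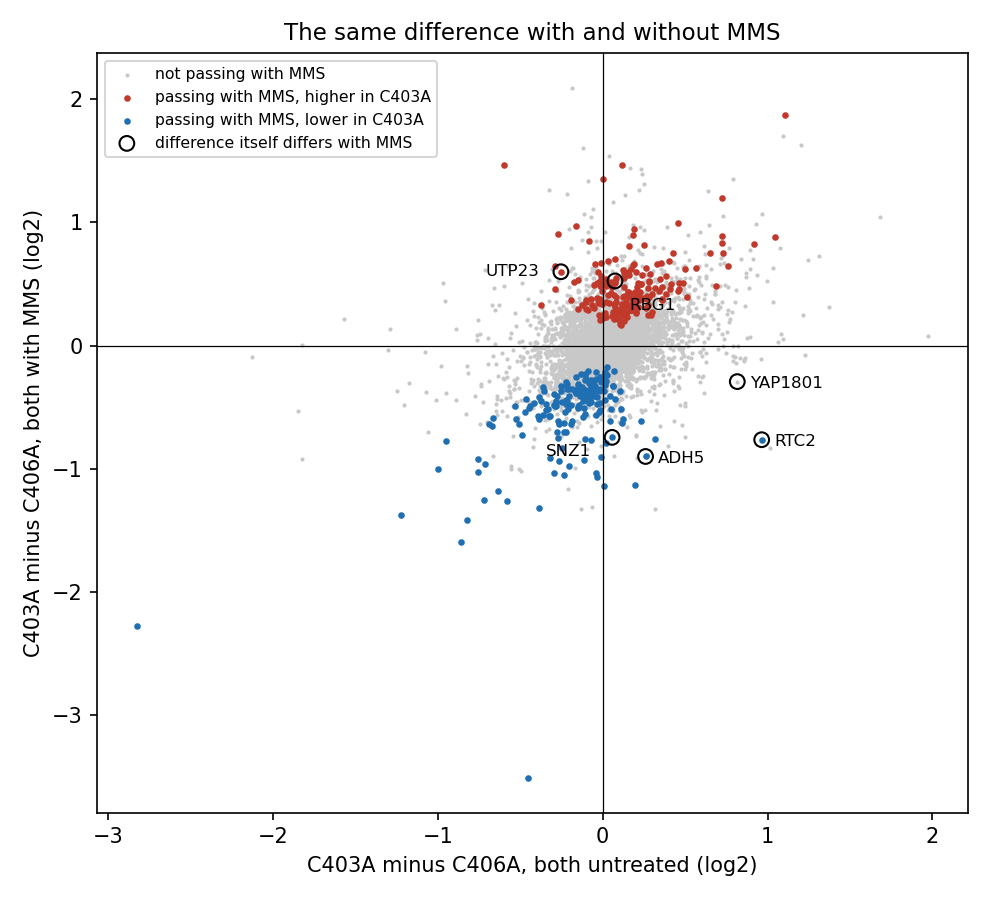
Log2 difference C403A minus C406A with MMS (vertical axis) against the same difference without MMS (horizontal axis), 1 point a gene, with genes passing with MMS in red (higher in C403A) and blue (lower). Circles mark the 6 genes whose difference itself differed with and without MMS; RTC2, ADH5, SNZ1 and YAP1801 lie below and right of the origin.

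The test of whether the difference itself changed with MMS passed for 6 genes, 0.112% of those tested, with 572 at an unadjusted p under 0.05. UTP23 had 1277 and 1231 in C403A, against 756 and 906 in C406A, with MMS. Without it, UTP23 had 1544 and 1482 in C403A, against 1807 and 1800.3 in C406A (change of the difference 0.85 ± 0.12, adjusted p = 0.0296). RBG1, a ribosome-associated GTPase, had 5322 and 5404 in C403A, against 3649 and 3809 in C406A, with MMS. Without it, RBG1 had 5122 and 5206 in C403A, against 4881 and 4931 in C406A (0.45 ± 0.06, adjusted p = 0.0296). Both were higher in C403A with MMS, while without it the difference was -0.25 for UTP23 and 0.07 for RBG1, and neither passed. RTC2, a vacuolar transporter of basic amino acids, had 201 and 171 in C403A, against 299 and 334 in C406A, with MMS. Without it, RTC2 had 151 and 189 in C403A, against 82.4 and 91.2 in C406A (-1.73 ± 0.20, adjusted p = 0.0256). ADH5, an alcohol dehydrogenase, had 963 and 879.8 in C403A, against 1686 and 1755 in C406A, with MMS. Without it, ADH5 had 1090.0 and 1372 in C403A, against 1009 and 1034 in C406A (-1.16 ± 0.14, adjusted p = 0.0256). RTC2 was higher in C403A without MMS (adjusted p = 0.0334) and lower with it (adjusted p = 0.0179), and ADH5 was lower with MMS and did not pass without it. In the comparison with MMS, the call of ADH5 held without any 1 of the 4 MMS-treated arrays, at -0.97 to -0.84. In that comparison the call of RTC2 was lost without C403A array 2 (-0.65) or C406A array 2 (-0.68). These fits concern the comparison with MMS and not the change of the difference with MMS. As deposited, RTC2 was at -0.72 with MMS (adjusted p = 0.393), and without either untreated C406A array no gene passed in the comparison without MMS, RTC2 included. SNZ1, of vitamin B6 synthesis, had 1301 and 1114 in C403A, against 2019.6 and 2022 in C406A, with MMS. Without it, SNZ1 had 1278 and 1202 in C403A, against 1168 and 1216 in C406A (-0.80 ± 0.11, adjusted p = 0.0296). YAP1801, of clathrin coat assembly, had 594 and 596 in C403A, against 704 and 755 in C406A, with MMS. Without it, YAP1801 had 576 and 677 in C403A, against 345 and 365 in C406A (-1.11 ± 0.15, adjusted p = 0.0296). In SNZ1 only the MMS-treated C406A arrays were high, while in YAP1801 only the untreated C406A arrays were low. Leaving out 1 of the 8 arrays gave between 0 and 64 passing genes, with 0 when either untreated C406A array was left out, 1 without MMS-treated C403A array 1 or MMS-treated C406A array 2, 21 without MMS-treated C403A array 2, 64 without MMS-treated C406A array 1, 19 without untreated C403A array 1 and 13 without untreated C403A array 2.

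**Figure D5:**
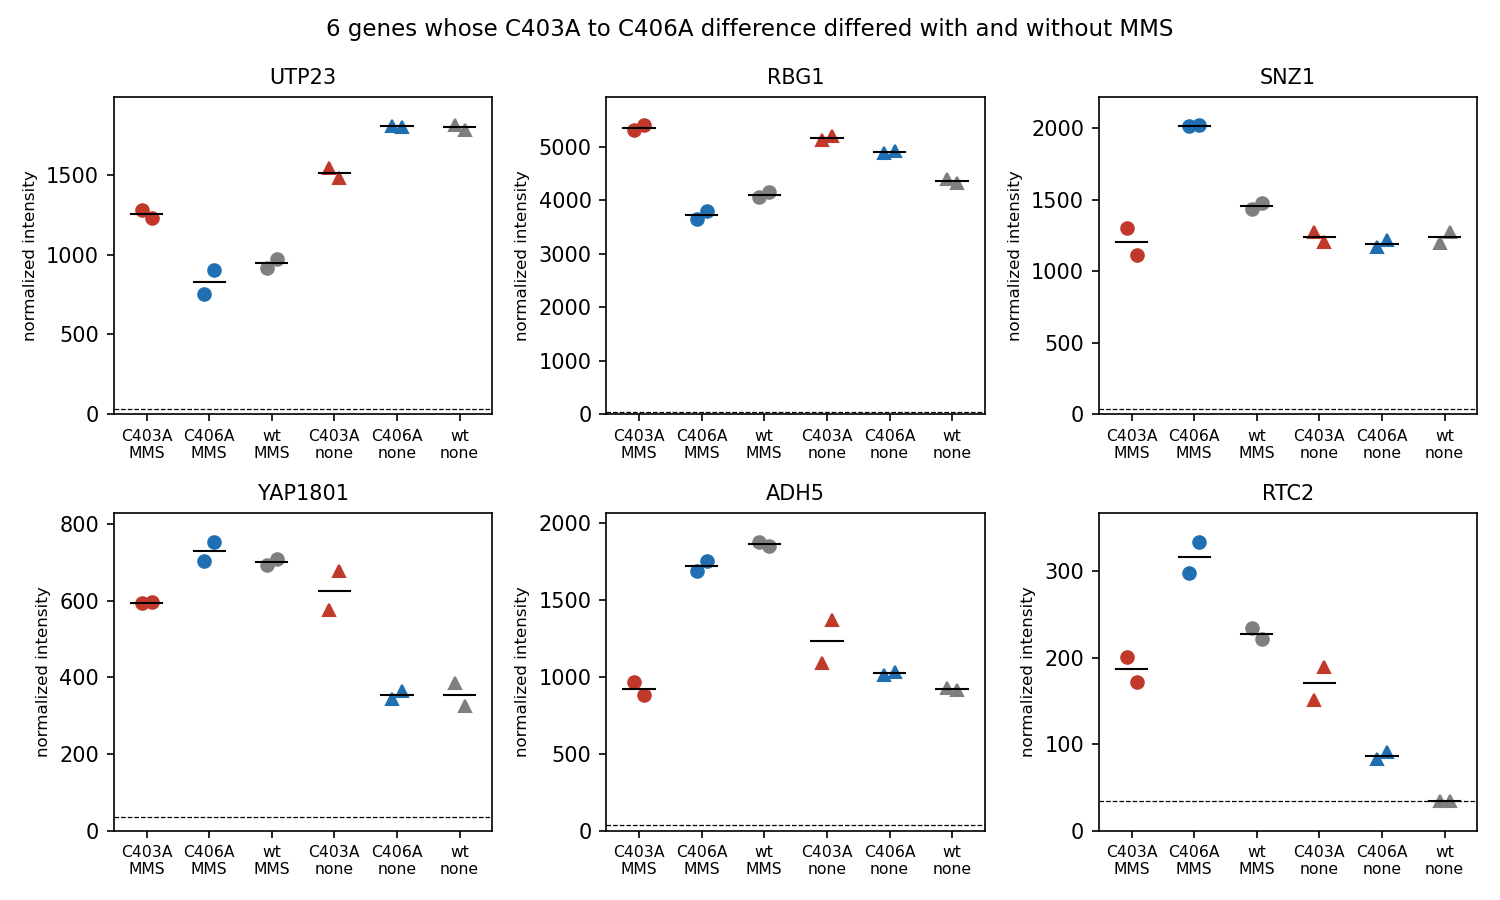
Normalized intensity of each array (points; bars are group means; dashed line the floor) for UTP23, RBG1, SNZ1, YAP1801, ADH5 and RTC2, with MMS-treated groups left and untreated groups (none) right, and C403A left of C406A in each. C406A with MMS is below C403A for UTP23 and RBG1 and above it for the other 4 genes.

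The wild-type response to MMS was measured on other arrays and can be set beside the difference between the mutants. However, both come from the same fit and share its estimate of spread for each gene. A gene with a small estimate therefore passes more easily in both. In wild type 1771 genes passed with MMS, or 33.0%. Of the 150 raised at least 2-fold there, 19 were lower in C403A than in C406A and 8 higher, or 12.7% and 5.33%, against 3.17% and 3.50% of all tested genes, and their median difference was -0.01. Genes raised by less than 2-fold gave 39 higher and 40 lower of 877 (median 0.05), and genes that did not pass in wild type 91 higher and 81 lower of 3598 (median 0.02). Genes lowered by less than 2-fold gave 46 higher and 27 lower of 706 (median 0.04), and the 38 lowered at least 2-fold gave 4 higher and 3 lower (median 0.09). Most genes of every class did not pass between the mutants. The shares higher and lower were 2.53% and 2.25% among genes that did not pass in wild type, and larger in each class that did. Because of the shared estimate of spread, the shares passing in these classes are not independent of the wild-type calls. They cannot tell whether the difference between the mutants follows the wild-type response. Across all genes the wild-type response and the difference between the mutants correlated at r = 0.00458 (Spearman 0.0266). Relative to wild type with MMS, 728 genes passed in C403A (13.6%) and 243 in C406A (4.53%), both sets measured against the same wild-type arrays. Of the 188 genes higher in C403A than in C406A, the wild-type mean lay between the mutants for 135, below both for 43 and above both for 10. Of the 170 lower genes, it lay between them for 89, above both for 67 and below both for 14. Wild type was nearer to C406A than to C403A for 69.3% of the 358 genes, against 55.8% of all tested genes. The genes with wild type above both mutants included ARG3, PIR1, PHO84 and EGT2, and those with wild type below both included PPT2, MF(ALPHA)2, SSL1 and SSK1.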

How the data were processed

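The authors deposited one-colour signal intensity per probe set on a linear scale, 9335 per array, per the file headers; 8.95% of these intensity values lay below 0. How probes were summarized into these values is not stated in the labels or headers. Array medians differed by 1.69-fold over the 12 arrays, so intensities were quantile normalized over probe sets other than the 60 controls, floored at their 20th percentile (34.5) and log2 transformed. Of 5656 genes with their own probe set, 315 had several, of which the brightest stood for the gene. A further 287 that exceeded the floor on fewer than 2 arrays were dropped, leaving 5369. The 6 group means were estimated from the 12 arrays together (R 4.3.3; limma 3.58.1, lmFit followed by eBayes with trend), with 6 residual and 3.53 prior degrees of freedom. Genes were called two-sided when the p-value, adjusted by Benjamini-Hochberg over every tested gene, was under 0.05. Each array weighs heavily in a comparison of 2 against 2. The scripts were tested on simulated data. Genes named included the 12 largest passing differences each way with a standard name and arrays that did not overlap between the strains. Also named were the 6 genes passing for the change with MMS and up to 4 passing members each way of a list. Some genes were named in any case (damage-induced genes, TFIIH subunits, SSL1, SSK1 and LEU2). The comparison, the 47 gene lists and these genes were chosen with earlier results of these data known, and some genes are in several lists. Alternatives covered normalization, floor, filter, variance model, probe sets, arrays in the fit, thresholds and leaving out each array. Fits with fewer arrays used values normalized, floored and filtered over all 12 arrays. Figures were drawn with matplotlib in Python.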

Additional observations from a re-analysis of the deposited data

Results flagged for a closer look

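For 6 genes the difference between C403A and C406A was itself different with and without MMS, by the test of that change in limma over all 12 arrays (given as the log2 difference with MMS minus that without). It was 0.85 for UTP23 and 0.45 for RBG1, both with an adjusted p of 0.0296. It was -0.80 for SNZ1 and -1.11 for YAP1801, also with an adjusted p of 0.0296, and -1.16 for ADH5 and -1.73 for RTC2, with an adjusted p of 0.0256. As deposited, 0 of the 6 genes passed limma's test of this change. RTC2 passed with MMS, at -0.77, and without it, at 0.96, in opposite directions. Its call with MMS was missed without C403A array 2 (adjusted p = 0.1) or C406A array 2 (0.104), and no gene passed without MMS, or for the change with MMS, when either untreated C406A array was left out.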

How the results depend on the processing

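With MMS, the 358 passing genes became 28 with values as deposited, 781 with scaling to the hybridization controls, 3 with the compared groups alone, 22 with a 2-fold minimum, 57 at an adjusted p under 0.01, and 62 to 274 when 1 array was left out. The split between higher and lower genes moved from 52.5% higher to 41.4% with centring of log2 values and to 0.768% on the hybridization controls. Without MMS, the 35 genes became 19 with median scaling, 12 as deposited, 4 on the hybridization controls, 20 with no floor, 20 with no trend, 11 with array weights, 6 with a 2-fold minimum, 0 at an adjusted p under 0.01, 0 with the compared groups alone (limma; 883 and 750 at an unadjusted p under 0.05) and 0 to 108 without 1 array. For the change with MMS, the 6 genes became 2 with centring, 2 as deposited, 18 with a floor at the 40th percentile, 15 with no filter, 1 with no trend, 14 with the mean of probe sets, 3 with a 2-fold minimum, 0 at an adjusted p under 0.01, 0 with the compared groups alone (572 and 580 at an unadjusted p under 0.05) and 0 to 64 without 1 array. The genes behind these counts also changed. As deposited, 18 of the 28 genes with MMS had passed with quantile normalization. So had 4 of the 12 without MMS and 0 of the 2 for the change with MMS. On the hybridization controls, 176 of the 781 with MMS, 2 of the 4 without it and 4 of the 4 for the change had. The cause of these shifts was not tested, beyond the fewer arrays or stricter thresholds that some settings impose. RPL17A, MYO1 and UGA4, named after their values were seen, were not followed across settings. Of the 116 other named genes 95 passed, and of these only DSK2 turned sign under any setting run, on the hybridization controls (-0.031). Genes that had not passed turned sign there too: LEU2 (-0.27), MAG1 (-0.069), RNR4 (-0.38), DDI1 (-0.016), UBI4 (-0.17), RPN4 (-0.20), SSL2 (-0.30), TFB4 (-0.12), KIN28 (-0.18) and CCL1 (-0.25). RNR4 also did with median scaling (-0.031) and centring (-0.066), and GRE2 (0.056) and TFB5 (0.031) did as deposited. Leaving out 1 array gave ranges across 0 of -0.072 to 0.0089 for RNR2, -0.023 to 0.044 for RNR4, -0.17 to 0.036 for DIN7, -0.19 to 0.064 for GRE2, -0.078 to 0.16 for SSL2 and -0.28 to 0.10 for TFB5. Over the other settings, 1079 of 1369 values of named genes kept direction and side of the threshold, 266 lost the threshold and 9 gained it (UBI4 under 3 settings, and RNR1, RNR2, DDI1, RAD54, TFB3 and YAP1801 under 1 each). No paired analysis was possible because the labels number no replicates.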
